A study of Mus musculus with 2 samples.

Results

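Receptor tyrosine kinases are cell surface proteins that bind a growth factor, or another ligand, outside the cell and carry a tyrosine kinase domain inside it. Ligand binding brings receptors together, the kinases phosphorylate each other, and adaptors such as GRB2 and kinases such as PI3K are recruited to pass the signal to growth, survival and migration pathways. Several of them, among them the PDGF, FGF and ErbB receptors, are expressed in cells of the bone lineage and studied in osteosarcoma, and ROR1, ROR2, RYK and PTK7 bind Wnt proteins or act in Wnt signalling. A fixed list of 36 mouse receptor genes was examined here on 2 expression arrays of MOS-J cells, an established mouse osteosarcoma line. One array came from cells with a control lentivirus and the other from cells with a lentivirus carrying human DKK1, a secreted blocker of canonical Wnt signalling. The labels give no passage, clone or time after transfer, and the protocols also describe G418-selected clones, plasmid transfer with blasticidin selection, and a red fluorescent label in mitochondria followed by sorting. Which steps apply to the profiled cells is not stated in the labels, so differences between selected lines and effects of DKK1 cannot be told apart.

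Receptors were taken as the probe sets whose annotation carries exactly 1 gene symbol, that symbol being on the list. All 36 genes were found, with 94 of the 45101 probe sets on the array and 36 of the 18193 named genes. A probe set is a group of short probes against 1 transcript, and its value is a MAS5 signal, an intensity on a linear scale that is scaled separately on each array. Signals of different probe sets depend on their probes, so differences are taken here between the arrays and not between genes. Sums over marker lists, and mentions of the highest or brightest signal, depend on the probes too. Probe sets with a mean signal over both arrays of 71.3 or more, the median of such means over the whole array, are called measured. A gene was called higher or lower in DKK1 cells where the mean difference over its measured probe sets, in log2(signal + 16.6), was at least 1, which is 2-fold on that scale, and all of them had the same sign. With 1 array a group there is no replicate error, no test and no p-value, and every difference below compares these 2 arrays alone.

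The arrays had median signals of 62.6 (control) and 78.6 (DKK1), while the trimmed mean was 499.8 on each. The 20 poly-A control probe sets above the filter, RNAs added before labelling, differed by 0.64 in the median (log2 ratio of DKK1 over control, no pseudocount), with a range of 0.10 to 1.21. The 18 probe sets for hybridisation controls, which skip the labelling step, differed by −0.37 in the median, with a range of −0.59 to −0.24. Control RNAs thus differed between the arrays by up to 1.21 on the log2 scale. Of 7 osteoblast lineage markers on the array 5 were measured and 0 called. Among the measured ones Col1a2, a collagen gene, had mean signals of 13570 (control) and 11430 (DKK1). Sparc (3539 and 7054 in the mean, 0.94) and Col1a1 (1895 and 3981, 0.79) were brighter in DKK1 cells, below the calling limit. The 2 probe sets of Col1a1 differed by 0.05 and 1.54. Alpl (147 and 182) and Sp7 (87.0 and 117) were nearer the filter. Ibsp was below it on both arrays, and Dlx5 (77.4 and 36.8) was not measured. Of 10 epithelial markers 3 were measured and 0 called. Epcam, an epithelial adhesion protein, had signals of 226 (control) and 264 (DKK1) on its measured probe set. Its other probe set read 5.18 and 2.63, and the measured one is of a type (suffix x_at) whose probes can match other transcripts. Krt8, a keratin of simple epithelia, had 76.2 and 125 on the brighter of its 2 measured probe sets, and Krt5 had 70.3 and 114. Cdh1, E-cadherin, was below the filter on both arrays, as were Krt14, Krt18, Krt19, Cldn3, Cldn4 and Esrp1. The part of such cells in the receptor signals was not tested.

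Of the 36 receptors, 18 had at least 1 probe set above the filter on both arrays, 2 on the control array only (Flt1 and Mertk), 3 on the DKK1 array only (Kdr, Mst1r and Ret) and 13 on neither. Among all 18193 genes, 56.9% were above the filter on both arrays and 35.6% on neither, against 50% and 36.1% of the receptors. On the control array only were 2.42% of all genes, against 5.56% of the receptors. On the DKK1 array only were 5.08% of all genes, against 8.33% of the receptors. The table holds no detection calls, so a signal below the filter means a dim probe set and does not show that the gene is silent. By the mean of both arrays 20 receptors were measured, through 37 probe sets, and 16 were not. Of the 20, 6 were higher in DKK1 cells, 0 were lower and 14 were not called. The rate of higher calls was 30% of the measured receptors, against 11.7% of all 11058 measured genes, where 6.91% were lower. The median difference of the measured receptors was 0.31, against 0.10 for all measured genes. Fgfr2, Pdgfrb, Axl, Pdgfra, Erbb2 and Egfr were the 6 higher receptors.

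**Figure D1:**
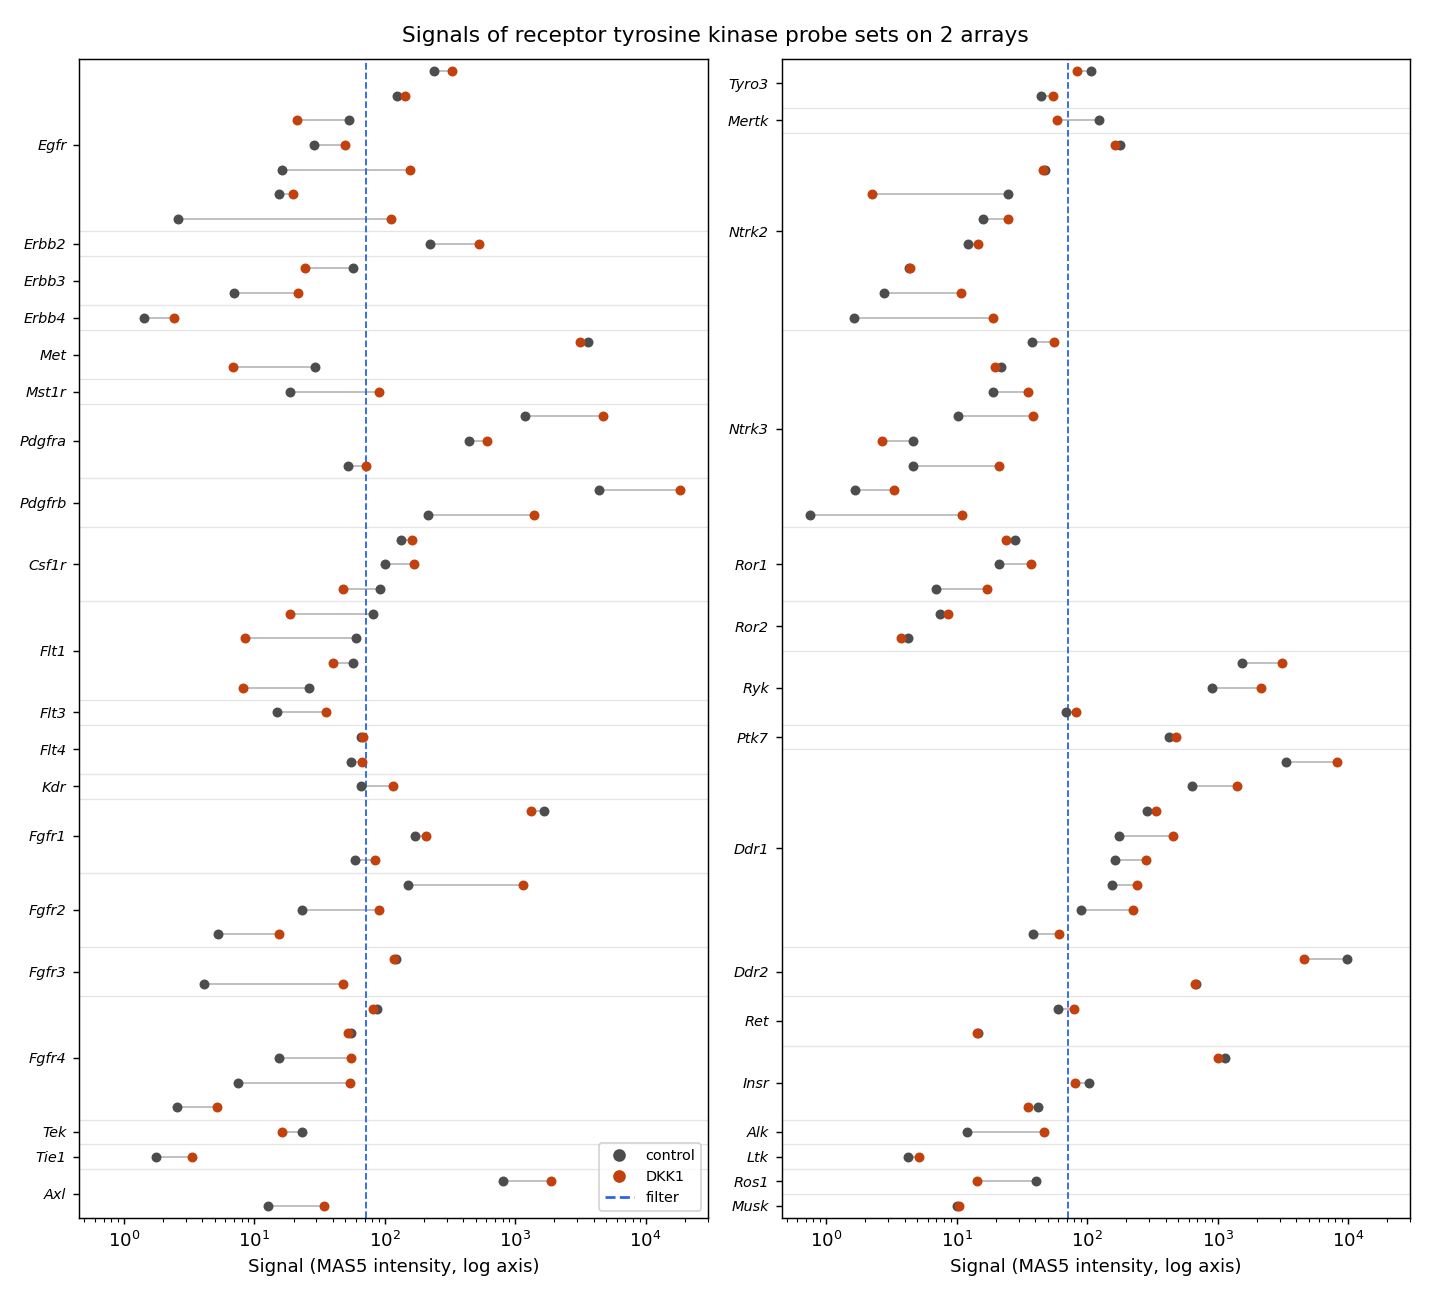
Signal (MAS5 intensity, log axis) of each of the 94 receptor probe sets on the control array (grey) and the DKK1 array (orange), grouped by gene, with the filter of 71.3 as a dashed line. The probe sets of Pdgfrb, the main one of Fgfr2 and 1 of Pdgfra show the widest gaps above the filter on both arrays, and most probe sets of the Ntrk, Ror, Tie and Alk genes lie to its left.

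Receptors for platelet-derived growth factor act in cells of mesenchymal origin, where they drive growth and migration. Pdgfrb, the beta receptor, had signals of 4388 (control) and 18158 (DKK1) on 1 probe set. The other gave 216 and 1401. Both were above the filter on both arrays and both were brighter in DKK1 cells, at 4.14-fold and 6.47-fold. The gene difference was 2.32 (SD 0.40 between the 2 probe sets), and the call held in all 13 alternative settings, where it ran from 1.70 to 2.69. Pdgfra, the alpha receptor, was less even. Its signals were 1198 and 4694 on 1 probe set and 442 and 608 on another, with the DKK1 array the brighter for each. The differences of these 2 probe sets were 1.96 and 0.45, so the gene difference of 1.20 has an SD of 1.07 between them. Its other probe set, at 52.1 and 71.7, was below the measuring limit. The Pdgfra call ended without the filter (0.92), after median centring (0.88) and after scaling on the poly-A controls (0.57).

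Csf1r, the receptor of the macrophage growth factor CSF1 and a relative of the PDGF receptors, was not called. Its measured probe sets had signals of 99.6 and 134 in control and 166 and 162 in DKK1 cells, a difference of 0.45, and its dim probe set went the other way, from 91.7 to 47.7. The sign of the gene difference depended on the scaling, with −0.50 on the poly-A controls. Of 10 macrophage and leukocyte markers 4 were measured, with Lyz2 higher (2.29) and Laptm5 lower (−1.10), both from signals below the filter on 1 array. Cd14 (370.5 in control and 521 in DKK1 cells) and Cd68 (86.4 and 127) were above the filter on both arrays and not called, while Ptprc and Adgre1 were below it on both. The signals of all 10, summed over the brightest probe set of each marker, were 726 in control and 988 in DKK1 cells, and those of the 4 measured ones 585 and 837, and the part of such cells in the Csf1r signals was not tested. Flt3, a receptor of blood progenitors, was dim, at 15.0 and 35.3.

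Fibroblast growth factor receptors bind FGFs together with heparan sulfate and act in skeletal growth. Fgfr2, a receptor of the osteoblast lineage, had signals of 151 (control) and 1157 (DKK1) on its 1 measured probe set, a 7.66-fold ratio and a difference of 2.81. Its other 2 probe sets were dim, with signals of 23.4 and 90.3 on one and 5.29 and 15.4 on the next, and all 3 were brighter on the DKK1 array. The call held in all 12 alternatives that measured the gene, from 1.59 to 3.16. The measured probe set is of a type (suffix s_at) whose probes can match more than 1 gene, and without such probe sets Fgfr2 was not measured. The other receptors of the family were not called. Fgfr1 had signals of 1667 and 1315, 170 and 205, and 59.0 and 84.4 in control and DKK1 cells on its 3 probe sets. These went both ways, for a difference of 0.11. Fgfr3 was nearly level on its measured probe set, at 123 and 118 (−0.04), with a dim one at 4.10 and 48.2. Fgfr4 had 1 measured probe set of 5, at 86.6 and 81.1 (−0.08), and its dim probe sets at 15.4 and 7.48 in control read 55.4 and 53.8 in DKK1 cells. Without the filter Fgfr3 was at 0.80 and Fgfr4 at 0.55, so their signs rest on which probe sets are counted.

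The ErbB receptors bind EGF-like ligands, and ERBB2, which has no known ligand of its own, acts as a partner of the others. Erbb2 had signals of 224 (control) and 526 (DKK1) on its only probe set, a ratio of 2.35 and a difference of 1.17. The call ended after median centring (0.86), quantile normalization (0.99) and scaling on the poly-A controls (0.56). Egfr, the EGF receptor, had 7 probe sets, 3 of them measured, with signals of 240 and 331, 124 and 144, and 16.3 and 156 in control and DKK1 cells. All 3 were brighter on the DKK1 array, with ratios of 1.38 and 1.17 for the first and second pairs. The gene difference of 1.01 (SD 1.20) rests on the last pair, which was measured only through its DKK1 signal. With dim signals raised to the filter it was at 0.61, and the call ended in 10 of the 13 alternatives, where values ran from 0.43 to 1.32 over all 13. The unmeasured Egfr probe sets went both ways, with 2.61 and 113 on one and 53.5 and 21.3 on another in control and DKK1 cells. Erbb3, an ErbB receptor with a weak kinase, was dim, at 57.4 and 24.4 on one probe set and 6.97 and 21.6 on the other. Erbb4 was dim at 1.44 and 2.42.

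AXL, TYRO3 and MERTK form the TAM family, which binds GAS6 and protein S and acts in the clearance of dead cells. Axl had signals of 799 (control) and 1889 (DKK1), a ratio of 2.36 and a difference of 1.22, with a dim probe set at 12.9 and 34.4. The call ended after median centring (0.90) and on the poly-A controls (0.59). Mertk went the opposite way, with 123 in control and 58.9 in DKK1 cells on its only probe set. Its difference of −0.88 was not called, and it passed −1 in 5 alternatives, among them median centring, quantile normalization and loess, each at −1.16. Tyro3 was not called, at 107 and 84.1 (−0.29), with a dim probe set at 44.1 and 55.2. The 3 family members thus did not share a direction as deposited, and this was also so after median centring and on the poly-A controls.

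Receptors that bind Wnt proteins or act in Wnt signalling were not called. Ryk, a Wnt receptor with an inactive kinase, was brighter in DKK1 cells on all 3 probe sets. The signals were 1533 and 3095 on the first, 903 and 2132 on the second and 69.4 and 82.2 on the last. The first 2 differed by 1.01 and 1.22, and with the last at 0.20 the gene stood at 0.81. Ryk was called higher under 4 alternatives, among them the stricter filter (1.12), which dropped the dim probe set. Ptk7, a pseudokinase of planar cell polarity, was level at 426 and 484 (0.18). Ror1 and Ror2, receptors for WNT5A, were below the filter on every probe set, with the highest signals at 37.4 for Ror1 and 8.51 for Ror2, both in DKK1 cells.

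The discoidin domain receptors are activated by collagen. Ddr1 had 8 probe sets, 7 of them measured, and all 8 were brighter on the DKK1 array. The widest was 3326 in control and 8205 in DKK1 cells, and the narrowest 287 and 334. The measured differences ran from 0.21 to 1.30 and the gene difference was 0.91 (SD 0.42), under the calling limit. Ddr1 was called higher on the hybridisation controls (1.27), with the brightest probe set (1.30) and with the median over probe sets (1.12). Several Ddr1 probe sets are of a type (suffix x_at) whose probes can match other transcripts, and without those the difference was 0.40. Ddr2, found in mesenchymal cells and bone, had signals of 9823 and 4600 on 1 probe set and 686 and 675 on the other. The first was 2.14-fold dimmer in DKK1 cells (−1.09) and the second was level (−0.02), so the 2 probe sets of Ddr2 gave different answers. Its mean of −0.56 was not called, and Ddr1 and Ddr2 had opposite signs in all settings tried.

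Met, the receptor of hepatocyte growth factor, was close on both arrays on its measured probe set, at 3638 in control and 3110 in DKK1 cells (−0.23). Its other probe set was dim, at 29.5 and 6.87, and without the filter the difference was −0.60. Met was called in none of the 13 alternatives. Insr, the insulin receptor, had signals of 1132 and 1003 on 1 measured probe set and 104 and 81.0 on the other, a difference of −0.24 (SD 0.09). Ntrk2, the receptor of BDNF, had 1 of 8 probe sets measured, at 177 and 165 (−0.10). Mst1r, a relative of Met, had signals of 18.7 (control) and 90.3 (DKK1) and did not reach the measuring limit in the mean.

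The receptors that mark blood and lymph vessels were dim or near the filter. Kdr, the main VEGF receptor, had signals of 66.0 (control) and 116 (DKK1) (0.68, not called), and it was measured only through its DKK1 signal. Flt1, a VEGF receptor that acts as a decoy, was dimmer in DKK1 cells on all 4 of its probe sets. The control signals were 80.8, 60.6, 57.1 and 26.2 and the DKK1 signals 18.8, 8.55, 40.2 and 8.13, in the same order. It was not measured, and without the filter its difference was −1.06, a lower call. In that setting 2 other unmeasured receptors, Mst1r (1.60) and Alk (1.16), were called higher. Flt4 was at 66.0 and 67.6 on one probe set and 55.3 and 67.0 on the next. Tek and Tie1, the receptors of angiopoietins, were at 23.2 and 16.4 and at 1.76 and 3.36. Of 10 endothelial markers 3 were measured and 0 called. They were Ramp2 (118 in control and 151 in DKK1 cells), Egfl7 (86.1 and 135 in the mean) and Robo4 (76.1 and 80.9). The summed signals of these 3 were 290.1 and 372. Summed over all 10 markers, most of them dim, the signals were 586 and 496. Pecam1 and Cdh5, defining markers of endothelium, were below the filter on both arrays, and the part of such cells in these receptor signals was not tested.

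The remaining dim receptors were Ntrk3, Ret, Alk, Ltk, Ros1 and Musk. The highest signal among them was that of Ret, a receptor of GDNF-family ligands, at 60.2 in control and 79.3 in DKK1 cells. Alk, a receptor of neural cells, had signals of 11.9 (control) and 47.1 (DKK1), and Ros1 40.2 and 14.4. The 8 probe sets of Ntrk3 were dim on both arrays, from 0.756 to 55.4. Musk, the receptor of the neuromuscular junction, was at 9.98 and 10.5 and Ltk at 4.22 and 5.17. Ratios of such dim signals are noisy and give no order.

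**Figure D2:**
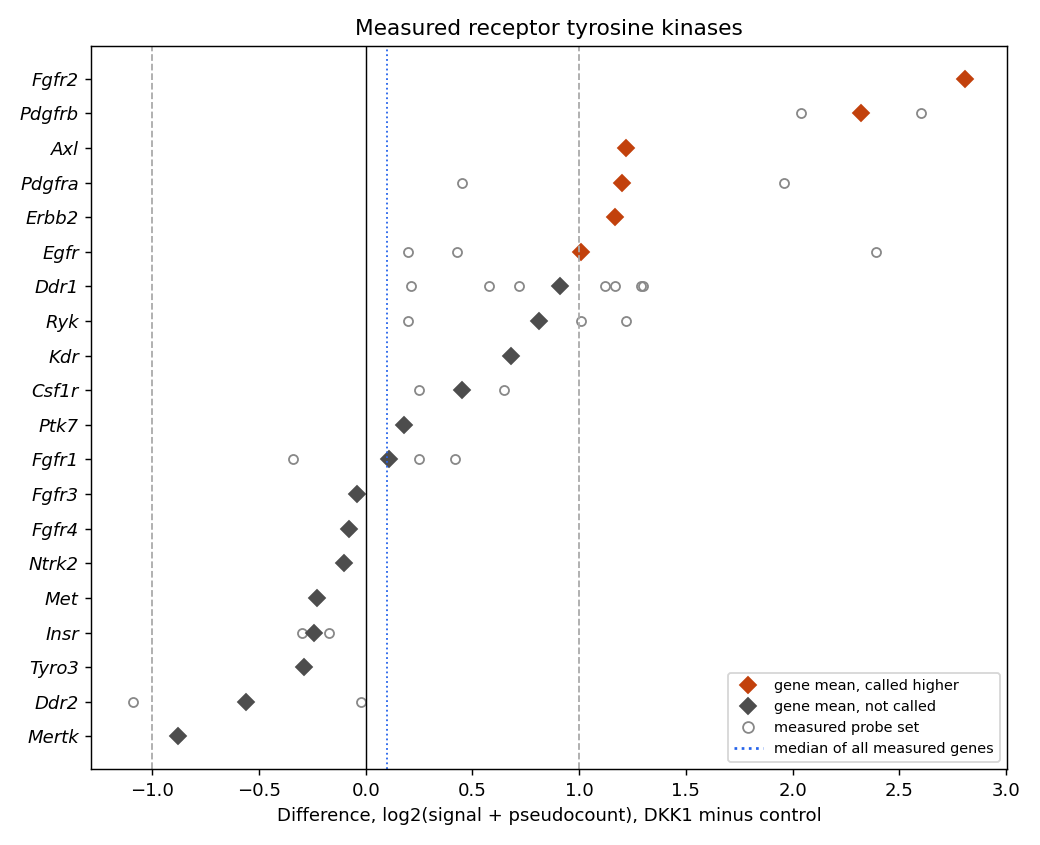
Difference between the arrays, log2(signal + pseudocount) of DKK1 minus control, for the 20 measured receptors, as gene means (diamonds, orange where called) and measured probe sets (open circles, hidden by the diamond where there is 1). Fgfr2 at 2.81 and Pdgfrb at 2.32 stand to the right of the other receptors, and the probe sets of Egfr and Pdgfra are spread widely.

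Set against the poly-A controls, the log2 ratios with no pseudocount were 2.69 and 2.05 for Pdgfrb and 2.94 for Fgfr2, above the highest control at 1.21. Axl (1.24) and Erbb2 (1.23) lay next to that highest control. For Pdgfra 1 measured probe set lay above it (1.97) and 1 within the range of the controls (0.46). For Egfr 2 of the 3 measured probe sets lay within that range (0.46 and 0.22), and the third (3.26) had a control signal below the filter. Among receptors not called, a Ryk probe set (1.24) and Ddr1 probe sets (1.37, 1.31 and 1.30) also lay above the highest control. The other measured probe sets of Ryk and Ddr1 lay within the range of the controls. After each array's scaling was changed, the median of all measured genes moved from 0.10 to between −0.52 (poly-A controls) and 0.46 (hybridisation controls), and that of the receptors from 0.31 to between −0.47 and 0.66. Pdgfrb and Fgfr2 were higher under all 5 other scalings.

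**Figure D3:**
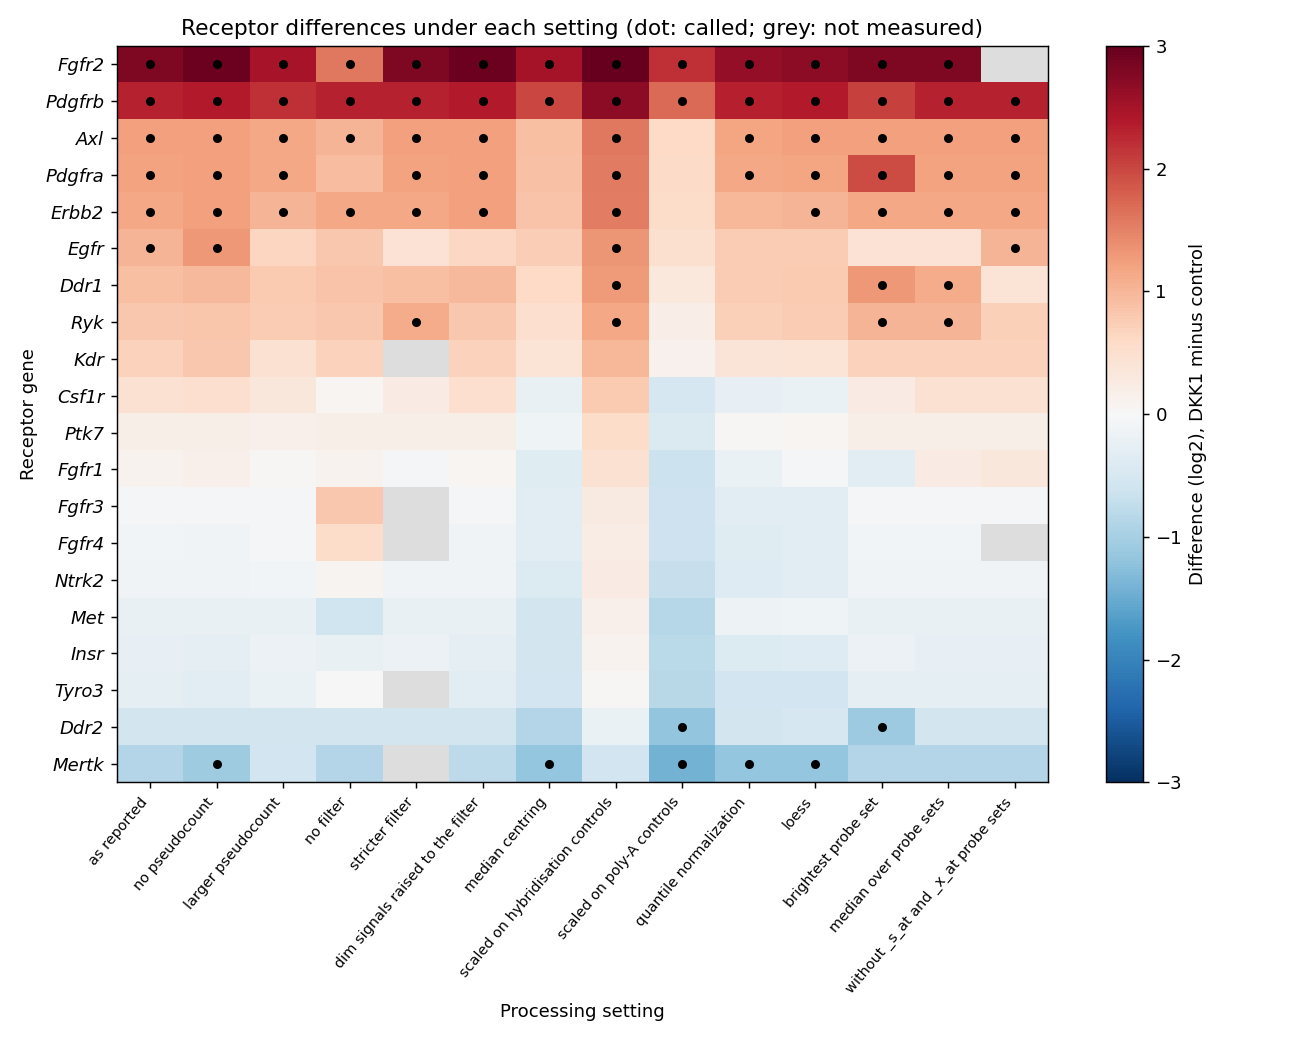
Receptor differences (colour, log2, DKK1 minus control) for the 20 measured receptors, in rows, under the reported setting and 13 alternatives, in columns, with a dot where the gene was called. The rows of Fgfr2 and Pdgfrb carry a dot wherever a value exists, and the dots of Axl, Pdgfra and Erbb2 are missing on the poly-A scaling.

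The promoters of the higher receptors are shown because these genes were called in the same direction on a pair of arrays. RefSeq windows of 300 bases, from 250 before to 50 after an annotated start in build GRCm38.p6, were given for 29 of the 36 receptors, and the 5 of the higher ones among them are printed 5′ to 3′ with each CG dinucleotide, the site of DNA methylation, in capitals. Which start the MOS-J cells use was not measured, and methylation was not measured.
Fgfr2 (chr7:130266759-130267058, minus strand): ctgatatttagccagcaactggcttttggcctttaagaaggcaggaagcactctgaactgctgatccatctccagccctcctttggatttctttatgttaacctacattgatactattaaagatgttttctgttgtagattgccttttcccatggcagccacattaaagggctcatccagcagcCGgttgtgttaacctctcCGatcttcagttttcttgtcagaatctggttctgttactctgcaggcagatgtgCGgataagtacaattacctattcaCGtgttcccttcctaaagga
Pdgfra (chr5:75152001-75152300, plus strand): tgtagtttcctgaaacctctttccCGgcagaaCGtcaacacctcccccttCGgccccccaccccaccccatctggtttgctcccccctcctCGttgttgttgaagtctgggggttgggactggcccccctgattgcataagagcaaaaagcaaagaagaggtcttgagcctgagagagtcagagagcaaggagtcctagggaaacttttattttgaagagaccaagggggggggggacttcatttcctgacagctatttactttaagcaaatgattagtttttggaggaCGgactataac
Axl (chr7:25788684-25788983, minus strand): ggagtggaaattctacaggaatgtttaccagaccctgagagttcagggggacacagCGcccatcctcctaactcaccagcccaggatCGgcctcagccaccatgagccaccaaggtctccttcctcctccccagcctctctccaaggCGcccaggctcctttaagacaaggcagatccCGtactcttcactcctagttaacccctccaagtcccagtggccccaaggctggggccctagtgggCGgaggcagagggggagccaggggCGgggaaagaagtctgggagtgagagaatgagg
Egfr (chr11:16751953-16752252, plus strand): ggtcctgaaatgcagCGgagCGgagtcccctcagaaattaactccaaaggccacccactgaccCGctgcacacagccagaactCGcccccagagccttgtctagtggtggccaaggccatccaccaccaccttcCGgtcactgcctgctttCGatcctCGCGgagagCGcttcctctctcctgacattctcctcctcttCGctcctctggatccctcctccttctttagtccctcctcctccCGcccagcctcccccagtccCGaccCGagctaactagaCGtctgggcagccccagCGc
Erbb2 (chr11:98412234-98412533, plus strand): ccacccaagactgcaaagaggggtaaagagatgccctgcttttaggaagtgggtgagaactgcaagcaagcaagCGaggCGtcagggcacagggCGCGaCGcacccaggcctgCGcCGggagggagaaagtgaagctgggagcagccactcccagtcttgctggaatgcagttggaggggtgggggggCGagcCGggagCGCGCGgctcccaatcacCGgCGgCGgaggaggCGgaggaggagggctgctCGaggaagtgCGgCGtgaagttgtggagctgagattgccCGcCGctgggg
The 5 windows differ in base composition. Those of Fgfr2, Pdgfra and Axl held 4, 5 and 6 CG dinucleotides, and those of Egfr and Erbb2 held 15 and 21. The median was 7 over all 32851 windows and 17.5 over the 34 windows of receptors. Among receptors that were not called, the window of Met held 34 and that of Ryk 42. So higher receptors had both CG-poor and CG-rich windows. Motifs were searched on both strands. GGGCGG, the core that SP1 binds, was in 22 of the 34 receptor windows (64.7%) and 35.7% of all windows, with 2 matches in the Axl window, 1 in that of Egfr and 0 in those of Fgfr2, Pdgfra and Erbb2. CTTTGA, a core of sites for the Wnt effectors TCF and LEF, was in 5 receptor windows (14.7%) and 16% of all windows, and in 0 of the 5 printed ones. A match describes the letters of the window only.

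Ligands of the receptors went in both directions. Of 50 listed ligand genes 47 were on the array and 29 measured, with 7 higher (24.1%, against 11.7% of all measured genes), 3 lower (10.3%, against 6.91%) and 19 not called, and a median of 0.17 against 0.10 for all genes. Igf2 and Igf1, insulin-like growth factors that also reach the insulin receptor, had mean signals of 13.9 and 22.3 in control and 4067 and 1054 in DKK1 cells. All 4 Igf1 probe sets and the 1 measured Igf2 probe set were below the filter in control cells. Both genes, counted among the 7 higher ligands, were thus measured only through their DKK1 signals. The other Igf2 probe set was dim, at 6.78 and 35.4. With dim signals raised to the filter Igf2 was at 5.83 and Igf1 at 3.74. Vegfd, a ligand of FLT4, the VEGF receptor of lymphatic vessels, was brighter in DKK1 cells on all 3 probe sets, at 697 and 3358, 757 and 3272, and 415 and 1979. Its difference of 2.18 had an SD of 0.08 between them and was called in all 13 alternatives. Vegfa, the main growth factor of blood vessels, was lower by contrast, at 1860 and 580 on one probe set and 211 and 119 on the other (−1.20). That call ended on the hybridisation controls (−0.85).

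Ligands of the called receptors, chosen after their values were seen, are set beside them here. Both PDGF genes that were measured were dimmer in DKK1 cells, while both PDGF receptors were called higher. Pdgfc had signals of 7174 and 7103 in control and 3203 and 2764 in DKK1 cells on its 2 probe sets, a difference of −1.26 (SD 0.14) that was called lower but ended on the hybridisation controls (−0.89). Pdgfa was at 3801 and 2386 and at 1822 and 1262 (−0.60, not called), and Pdgfb and Pdgfd were dim. Fgf7, a ligand of an FGFR2 splice form of epithelia, had signals of 7671 and 12195 on one probe set and 995 and 1979 on the other (0.82, not called). Which splice form of Fgfr2 the cells carry was not tested.

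Nrg1, a ligand of ERBB3 and ERBB4, had signals of 192 (control) and 733 (DKK1) (1.84) and was called higher in all 13 alternatives, while Erbb3 and Erbb4 were dim. Ereg, which binds EGFR, was close on both arrays at 961 and 879 (−0.13). Pros1, which encodes protein S, a TAM ligand, had signals of 910 and 2421 (1.39), and that call ended on the poly-A controls (0.76). Gas6, the other TAM ligand, was not measured, with 42.1 and 79.2 on the brighter of its 2 probe sets. Angpt1, the activating ligand of TEK, had signals of 469 and 2090 on its measured probe set (2.12), and its receptor was dim on both arrays. Wnt5a, a ligand of ROR2 and RYK, was brighter in DKK1 cells on all 3 measured probe sets, with signals of 723 and 3097, 178 and 515, and 61.2 and 423 in control and DKK1 cells (2.01 for the gene, SD 0.53). The last pair differed most (2.50) and was below the filter in control cells. Ptn, pleiotrophin, a heparin-binding growth factor for which ALK has been described as a receptor, had signals of 6565 and 219, 686 and 34.0, and 165 and 109 in control and DKK1 cells. It was lower by −3.04, with an SD of 2.23 between probe sets. Csf1 was not called (−0.49), with its brightest probe set at 11583 and 7311, and Hgf, the ligand of MET, was dim or at the filter, with 74.3 and 29.1 on the brightest of its 3 probe sets.

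Co-receptors present ligands to the kinases. Of 20 listed, 16 were measured, with 5 higher (31.2%, against 11.7% of all measured genes), 1 lower (6.25%, against 6.91%) and 10 not called, and a median of 0.68 against 0.10 for all genes. The list median stayed above that of all genes in all 13 alternatives, by 0.51 to 0.73, but on the poly-A controls it was 0.06 with 0 higher and 1 lower of 16, where 4.27% of all genes were higher and 24.1% lower. Sdc3, a heparan sulfate syndecan, had signals of 253 (control) and 790 (DKK1) (1.58). The Sdc3 call ended without the filter (0.70) and on the poly-A controls. Lrp6, the Wnt co-receptor that DKK1 binds, stood at 1.55, and the glypican gene Gpc6 at 1.44 (SD 0.27 between 4 probe sets). Each rests in part on probe sets below the filter in control cells, at 29.0 and 152 for Lrp6 and at 44.4 and 149 and 38.3 and 135 for Gpc6. With dim signals raised to the filter Lrp6 was at 1.16 and Gpc6 at 1.24. Gfra1, the GDNF co-receptor of RET, was the lower one, at 171 and 66.0 (−1.18), and its call ended in 3 of 12 alternatives. Nrp1 and Nrp2, co-receptors for VEGF, were not called, at 0.61 and −0.15.

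Adaptors and signalling enzymes that carry the signal inward were mostly not called, with 4 of 32 measured genes higher (12.5%, close to the 11.7% of all measured genes), 1 lower (3.12%, against 6.91%), 27 not called and a median of 0.20. Pik3r3 and Pik3r1, regulatory subunits of PI3K, were higher, at 1.72 and 1.10, and Irs1, the docking protein of the insulin receptor, had signals of 2357 (control) and 6203 (DKK1) (1.39). The Irs1 call ended on the poly-A controls (0.75) and held in the other 12 alternatives. The Pik3r1 call ended in 6 of 13 alternatives, from 0.48 on the poly-A controls to 0.99 with a larger pseudocount and with quantile normalization. Fyn, a SRC-family kinase, was lower, with mean signals of 1150 and 407 (−1.38), and was called lower in all 13 alternatives. Receptor inhibitors and shedding enzymes had 5 of 22 measured genes higher (22.7%, against 11.7% of all measured genes), 1 lower (4.55%, against 6.91%) and a median of 0.17. Socs2 (1.60) and Socs3 (1.48), feedback inhibitors of cytokine signalling that also act on receptor kinases, and Adam10 (1.31), a protease that sheds surface proteins, were higher. Socs2 and Adam10 rest in part on probe sets below the filter in control cells, such as 30.6 and 199 for Socs2 and 67.6 and 218 for Adam10. With dim signals raised to the filter Socs2 was at 1.37 and Adam10 at 1.38. Lrig3, a membrane protein related to the ErbB inhibitor LRIG1, was lower (−1.20). The Adam10 call ended without the filter (0.43), after median centring and on the poly-A controls (0.71), and the Lrig3 call without the filter (−0.88) and on the hybridisation controls (−0.85). On the poly-A controls this list had 0 higher and 4 lower genes of 22, where 4.27% of all genes were higher and 24.1% lower.

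**Figure D4:**
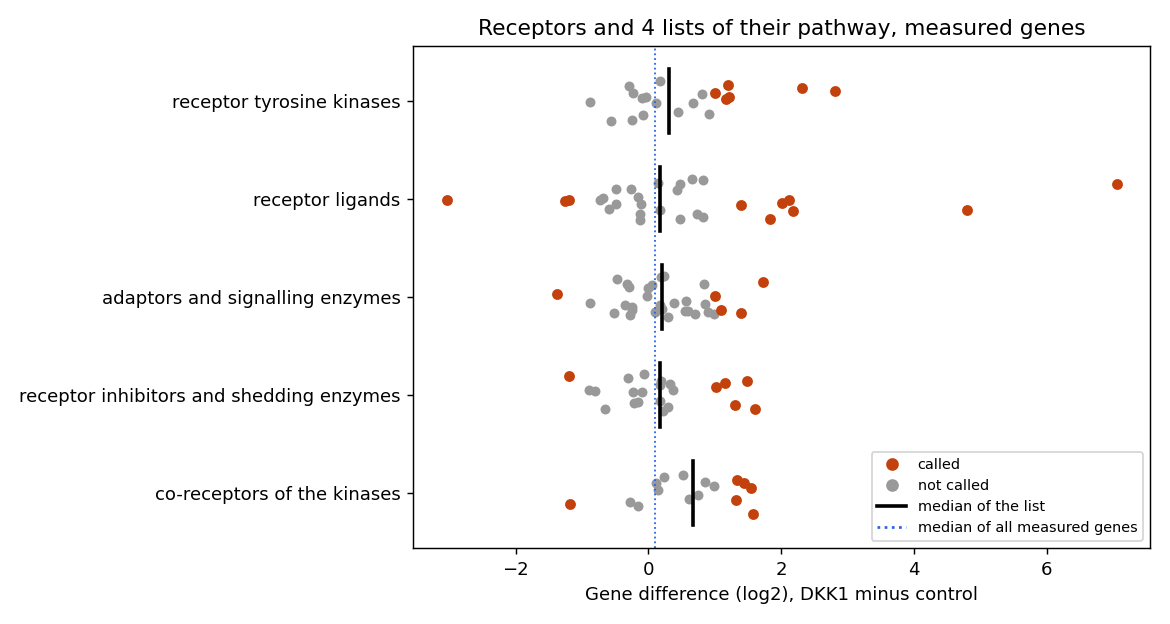
Gene differences (log2, DKK1 minus control) of measured receptors and of measured genes on 4 lists of their pathway, with called genes in orange, the median of each list as a black bar and the median of all measured genes (0.10) as a dotted line. Heights within a row are random. Ligands spread most widely, from Ptn at −3.04 to Igf2 at 7.06, and Igf2 was measured only through its DKK1 signal.

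Pericytes and smooth muscle cells also carry Pdgfrb, so their markers were read beside it. Of 8 pericyte markers 3 were measured. Acta2, smooth muscle actin, was higher, with mean signals of 3580 (control) and 15290 (DKK1) (2.58). Its main probe set differed by 2.08, and the other measured one (12.3 and 226) passed the filter only through the DKK1 array. Cspg4 (0.62) and Notch3 (−0.12) were not called. Rgs5 was below the measuring limit, with 15.1 (control) and 78.8 (DKK1) on the probe set that passed the filter in DKK1 cells. Its other probe sets were below the filter on both arrays and went both ways. Mcam, Abcc9, Kcnj8 and Des were below the filter on both arrays. The signals of the list, summed over the brightest probe set of each, were 7791 and 31170. Acta2 made up most of both sums, and without it they were 644 and 819. The part of such cells in the Pdgfrb difference was not tested.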

How the data were processed

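MOS-J cells with a control or a DKK1 vector were profiled on 1 Affymetrix mouse array each, from 500 ng of total RNA labelled by a 3' in vitro transcription protocol, per the labels' protocols. The deposited intensity values are MAS5 signals per probe set, as named in the submitters' processing notes. Neither its version nor its settings were given in the sources used here. Each array was scaled on its own, so a shift shared by all genes cannot be seen, and dim MAS5 signals are noisy. The labels used here give no replicate or batch. Precision is limited by having 1 array a group.

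Symbols came from the platform annotation, with gene IDs of 34741 of 34945 probe sets with 1 symbol matched to RefSeq (GRCm38.p6). The 64 control probe sets were left out of genes. The pseudocount was the 25th percentile of all signals and the filter the 50th percentile of probe set means. A probe set bright on 1 array alone could pass it only through that array. Calls followed the rule in the report, and a fold on this scale understates dim genes. The 13 alternatives were 12 planned and 1 added after seeing the data (no s_at or x_at probe sets). They changed the pseudocount, filter, scaling (5 ways, loess by lowess with a span of 0.3) or the summary over probe sets. Every receptor was named, with up to 3 higher and 3 lower called genes per pathway list and further ligands where stated. Receptors and lists were chosen with earlier results of these data known. Scripts used Python 3.11.15, numpy 2.4.6, pandas 2.3.3 and statsmodels 0.14.6. The code was also run on simulated data with planted differences well above the calling limit and alike on all probe sets of a gene. That run checked the code and does not bear on calls near the limit.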

Additional observations from a re-analysis of the deposited data

How the results depend on the processing

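The count of higher receptors was 6 as reported and 5 to 8 under 10 of the alternatives, and 4 with quantile normalization. It was 2 after median centring (3 receptors called in all, 1 of them lower) and 2 on the poly-A controls (2 lower), against 6.75% and 4.27% of all genes called higher and 13% and 24.1% called lower in these settings. Without the filter the 6 higher receptors included Mst1r and Alk, which were not measured otherwise. The count of lower receptors, 0 as reported, was 1 with no pseudocount, with median centring, quantile normalization and loess (Mertk in each), 1 without the filter (Flt1) and 1 with the brightest probe set (Ddr2), and 2 on the poly-A controls (Mertk at −1.41 and Ddr2 at −1.19). Higher genes made up 62.9% of all calls as deposited, 34.3% after median centring, 49.8% with quantile normalization, 52.4% with loess, 86.2% on the hybridisation controls and 15.1% on the poly-A controls. Of the 20 measured receptors, 12 kept the same result, called or not called, in every alternative that measured them. Of the 6 called higher, 2 did so, Pdgfrb and Fgfr2. Of the 27 called list genes, 9 did so. Counts of receptors above the filter stayed within 1.5 times the reported ones. Where a call ended, the cause was not tested beyond the setting itself. No paired analysis was possible because each group has 1 array. With 1 array each, leaving out a replicate was not possible.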

Other observations

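Pdgfrb and Csf1r are direct neighbours among protein-coding genes of the RefSeq table. The former was called higher on both of its probe sets (2.60 and 2.04), while the measured probe sets of the latter differed by 0.65 and 0.25.

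Neural and glial markers were mostly dim, with 2 of 9 on the array measured and both higher in DKK1 cells. Sox10, a neural crest factor, had signals of 61.7 (control) and 240 (DKK1) on its measured probe set, and Map2, a microtubule protein of neurons, 52.3 and 405 on its own. Both passed the filter only through the DKK1 array. The other 2 Sox10 probe sets went the opposite way, the brighter one at 94.5 and 27.4, and were below the measuring limit in the mean. Tubb3, a tubulin of neurons, was at 126 (control) and 9.05 (DKK1), and Mbp, a myelin protein, 97.9 and 33.6 on its brightest probe set in control cells, so both were above the filter in control cells there and below the measuring limit in the mean. The summed signals over all 9 markers were 509 and 855, and 456 and 449.5 without Map2. The markers Gfap, Nefl, Syp and Snap25 were below the filter on both arrays.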
